A study of Caenorhabditis elegans with 10 samples.

Results

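Among the 6 adult arrays of a comparison of wild-type and nep-1 mutant Caenorhabditis elegans, 2 arrays, adult wild-type 3 and adult mutant 1, stood nearer to the larval arrays than the other 4 did. The members were taken from the sample descriptions, which carry bare names for these 2 arrays (WT and NEP) and a letter, A or B, for adult wild-type 1 and 2 and adult mutant 2 and 3. The first 2 are called the bare-name pair here, and the other 4 the lettered adult arrays, so the pair makes up 2 of 6 adult arrays and 2 of 10 arrays in all. The pair was singled out with earlier results of these data in view, so the fact that it stands apart is a description of the arrays and not a finding.

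Each array measured total RNA of whole worms. The wild type was the Bristol strain, and the mutant carries a nep-1 allele obtained by mutagenesis with ethyl methanesulfonate. nep-1 encodes a neprilysin, a membrane peptidase. There were 2 larval arrays of stage L3 per genotype, 2 lettered adult arrays per genotype and 1 bare-name adult array per genotype. All worms were grown on agar with the bacterial food strain OP50, and RNA was extracted with Trizol. The labels give no age for the adults, and a strain code appears for larval mutant 1 and, with another number, for the lettered mutants, but not for adult mutant 1. Descriptions pair wild-type 1 with mutant 2 (letter A) and wild-type 2 with mutant 3 (letter B). Nothing in the labels says what a letter or a bare name stands for, so age, culture, extraction and processing cannot be told apart within the contrast.

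The surface of C. elegans is a collagen-rich cuticle that the epidermis secretes anew at each larval stage and sheds at each moult. Collagen genes, hedgehog-related and patched-related genes, matrix proteases and lipocalins are expressed in waves with the moulting cycle, and many of them fall quiet once the adult cuticle is made. Adults in turn hold many transcripts of the germ line and of yolk and egg production that larvae lack. In RNA of whole worms, fewer cells of a type and less RNA per cell cannot be told apart. In the authors' files, gene names could be attached to 145 genes, of which 137 are on the authors' lists of transcripts that differed between mutant and wild-type larvae. The named genes are therefore mostly ones detected in larvae, and counts over them carry that choice.

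Controls on the same arrays differed between the pair and the lettered adults. Poly-A spike-in transcripts of Bacillus subtilis, added to RNA in the laboratory, averaged 4.42 and 4.41 on the log2 scale over 24 probe sets on wild-type 3 and mutant 1. The lettered adults had 6.16, 6.09, 5.88 and 5.68 (wild-type 1, wild-type 2, mutant 2 and mutant 3). The larval arrays were split in the same way, with 4.52 and 4.52 on wild-type 1 and mutant 1 and 5.62 and 5.51 on wild-type 2 and mutant 2. The bare-name pair and the first larval pair thus share low spike-in levels, with 0 to 2 of the 24 probe sets called present against 12 to 21 on the other 6 arrays. Averaged over 4 worm control transcripts, the level at the 3' end exceeded that at the 5' end, an RNA quality measure that moves with the contrast. Gapdh had no such excess, with means of -0.01 on the pair and -0.14 on the lettered adults. The mean excess over 4 transcripts was 1.13 and 1.45 on wild-type 3 and mutant 1 and 0.73 to 0.91 on the lettered adults. On the larval arrays it was 0.80 and 0.83 in the wild type and 0.77 and 1.14 in the mutant, so larval mutant 2 reached the level of wild-type 3. The difference of 0.45 between the pair and the lettered adults had an exact two-sided permutation p of 0.0667, the smallest that 15 arrangements allow. It was 0.40 for actin, 0.48 for ubiquitin and 0.78 for catalase. For Gapdh it was 0.13 with overlapping ranges (exact permutation p = 0.467). The ubiquitin excess averaged 3.31 on the pair, 2.82 on the lettered adults and 3.46 and 3.38 on the first and second larval pairs. The part of spike-in level and RNA quality in the differences that follow was not tested. Present calls covered 60.6% and 61.8% of probe sets on the pair and 50.4% to 59.6% on the lettered adults. Across probe sets, wild-type 3 correlated with the larval arrays at a mean of 0.903 and mutant 1 at 0.891. The lettered adults had means of 0.830 to 0.837 with the larval arrays. With the lettered adults, wild-type 3 correlated at a mean of 0.954 and mutant 1 at 0.902. Both arrays of the pair thus correlated more with the lettered adults than with the larvae, mutant 1 by a small margin.

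**Figure D1:**
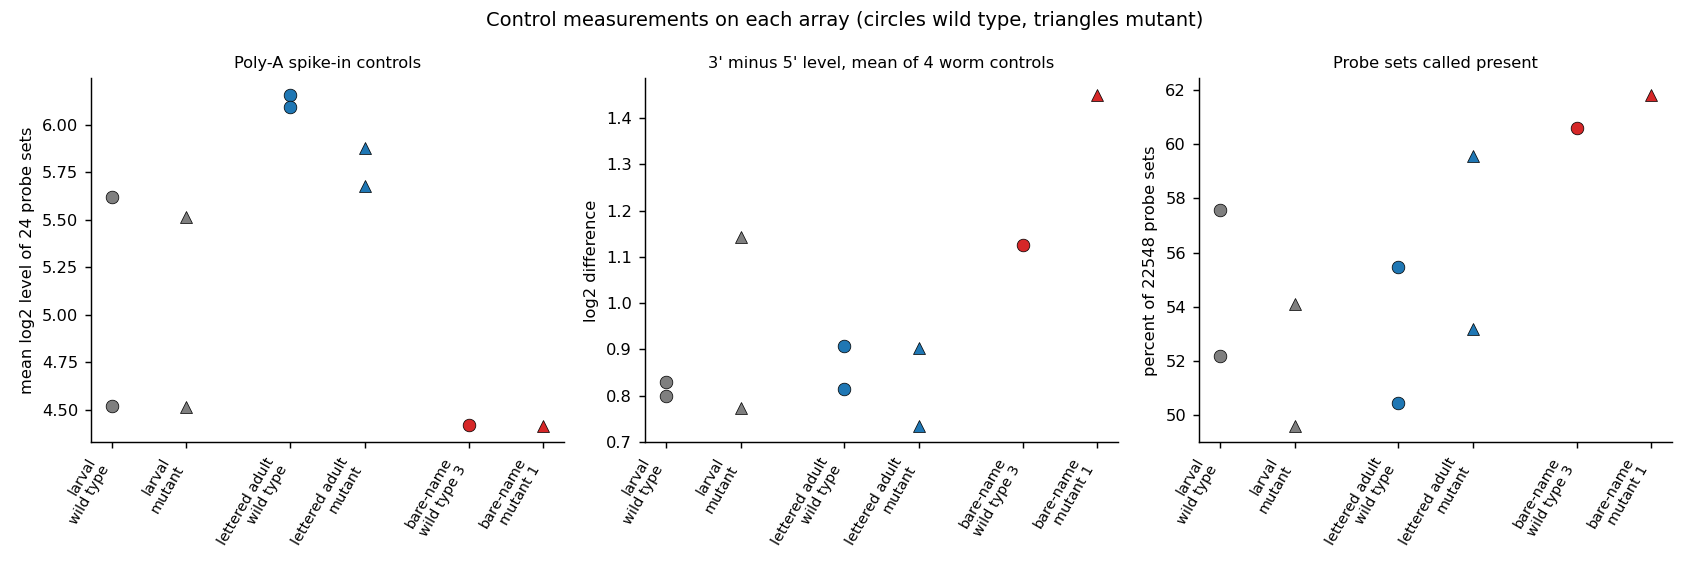
Control measurements on each of the 10 arrays, with the mean level of 24 poly-A spike-in probe sets (log2), the mean 3' minus 5' level of 4 worm control transcripts (log2) and the percentage of 22548 probe sets called present. Each point is 1 array, grey for larval, blue for lettered adult and red for bare-name adult arrays; the pair lies below every lettered adult in spike-in level and above every one in the other 2 panels.

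nep-1 itself followed the genotype labels in the pair. Its level was 7.32 on wild-type 3 and 5.05 on mutant 1, against 6.01 and 6.85 on the lettered wild-type arrays and 5.10 and 5.42 on the lettered mutants. The larval levels were 8.19 and 9.17 in the wild type and 5.20 and 4.85 in the mutant. Mutant 1 therefore lay with the other mutants and wild-type 3 above both lettered wild-type arrays. The bare-minus-lettered difference over both genotypes was 0.34 ± 0.36 (SE), with a limma adjusted p of 0.568.

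Over all 22548 probe sets, the pair differed from the lettered adults at 3531 (15.7%), and was higher at 1367 (6.06%) and lower at 2164 (9.60%), in a limma fit with genotype and naming as terms, at an adjusted p of 0.05. An unadjusted p under 0.05 was reached by 7532. These calls treat the 6 adult arrays as independent samples. Arrays of the same letter deviated together, with a correlation of 0.64 across probe sets between the A-minus-B differences of the genotypes. With each letter pair as a single unit, which leaves 1 bare-name unit against 2 lettered ones, 0 probe sets passed, 6684 had an unadjusted p under 0.05, and the smallest adjusted p was 0.0874. Scaling moved the balance of directions. With each array centred on its median, which shifted the median difference of all probe sets from 0.00 to -0.19, there were 1022 higher and 3251 lower calls. With the scaled signals, which shifted it to 0.29, there were 2794 higher and 916 lower calls.

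Levels that differ between larvae and adults moved toward the larval side in the pair, in both genotypes. To avoid using an array both to choose and to read, larval-high and adult-high probe sets were chosen in one genotype, from its larval and lettered adult arrays, by a difference of at least 2 on the log2 scale with no overlap. They were then read in the adult arrays of the other genotype. In size, the stage differences nearest the limit were 2.001 to 2.002 inside it and 1.996 to 1.999 outside it over the 4 sets. Because letters are shared between genotypes, the choice and the reading use separate arrays but the same letters. A level that the lettered arrays of both genotypes share thus enters both steps and can move the reading in the chosen direction. Its part was not tested.

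The larval-high set chosen in the wild type held 662 probe sets. Their median level was 5.79 on mutant 2, 5.45 on mutant 3 and 6.79 on mutant 1, with 7.87 and 8.41 on the mutant larvae. Mutant 1 thus lay between the lettered adults and the larvae. The median difference between mutant 1 and the mean of the lettered mutants was 1.04, against 0.01 over all probe sets. Mutant 1 was above both lettered mutants at 556 (84.0%) of them, against 42.2% of all probe sets, and below both at 30.

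The larval-high set chosen in the mutant held 435 probe sets. Median levels were 5.15 and 5.35 on wild-type 1 and 2, 7.38 on wild-type 3, and 8.67 and 8.50 on the wild-type larvae. The shift was larger here, with a median difference of 1.78 against -0.03 over all probe sets. Wild-type 3 lay above both lettered wild-type arrays at 420 (96.6%) of the set, against 33.5% of all probe sets. It was higher by at least 1 at 339 of them and lower by at least 1 at 0.

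Adult-high probe sets moved the other way. The 1384 chosen in the wild type had median levels of 8.94 and 8.96 on mutant 2 and 3, 7.62 on mutant 1, and 5.79 and 5.98 on the mutant larvae. Their median difference was -1.28, and mutant 1 lay below both lettered mutants at 1273 (92.0%), against 39.4% of all probe sets. The 1471 chosen in the mutant had median levels of 8.87 and 8.98 on wild-type 1 and 2 and 8.13 on wild-type 3, with 5.86 and 6.10 on the larvae. Their median difference was -0.70, and wild-type 3 lay below both at 1153 (78.4%), against 38.6% of all probe sets. In size, the larval-high difference exceeded the adult-high one in wild-type 3, and the reverse held in mutant 1; this contrast between the arrays was not tested. None of the lists for sperm, oocyte and embryo or yolk genes had a named member. Probe sets that the authors' annotation calls major sperm protein matched several genes each and were left unnamed. Of the named genes, 5 were in the adult-high set chosen in the wild type and 6 in the one chosen in the mutant. vha-18, rskn-1, col-142, acdh-2 and Y51H7C.1 were in both, and their differences were -1.45, -0.30, -3.91, -2.12 and -3.33 on mutant 1 and -0.80, -0.56, -1.15, 0.17 and 0.56 on wild-type 3. The last 2, named after their values were seen, were thus lower on mutant 1 and not lower on wild-type 3.

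**Figure D2:**
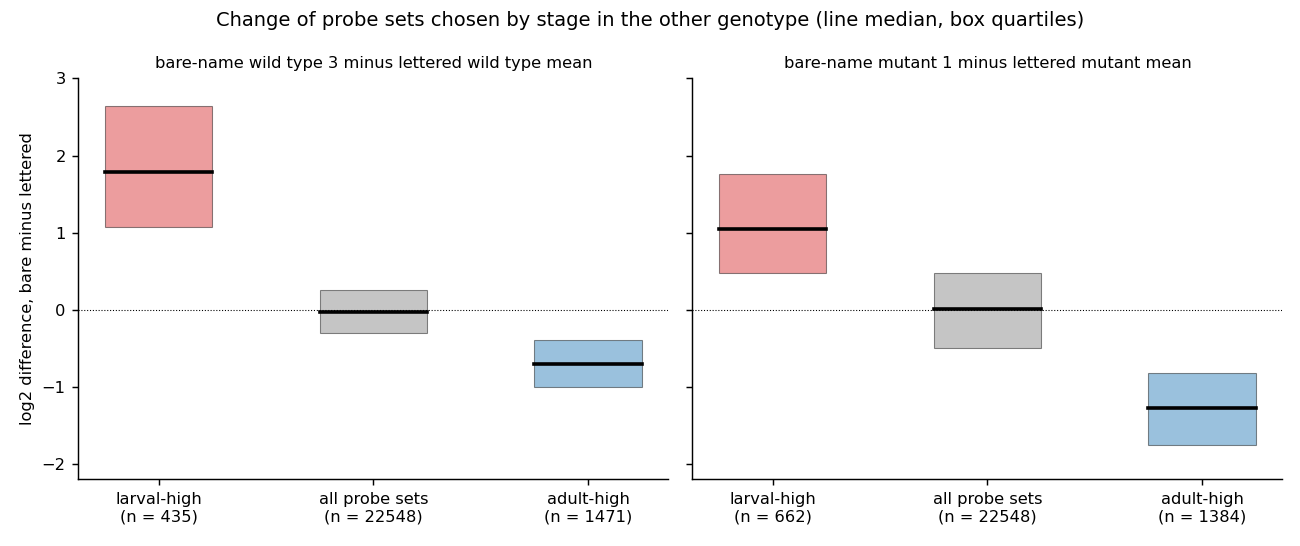
Bare-minus-lettered log2 difference (vertical axis) of larval-high, all and adult-high probe sets, read in the wild type on the left and in the mutant on the right, each set chosen on arrays of the other genotype. The line is the median and the box spans the quartiles over probe sets; larval-high medians are 1.78 and 1.04 and adult-high medians -0.70 and -1.28.

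Most named cuticle and moulting genes had higher levels on both bare-name arrays than on every lettered adult. Of 26 named genes in the lists of collagens, hedgehog-related and patched-related genes, glutamine- and asparagine-rich proteins and moulting genes, 10 were called higher and 0 lower, against 6.06% and 9.60% of all probe sets, and their median difference was 2.39, against 0.00 over all probe sets. All 145 named genes, from which the 26 come, had 54 higher and 3 lower calls and a median of 1.28, so the share called was about the same as among the named genes as a whole. In 19 of the 26, both bare-name arrays lay above all 4 lettered adults, against 20.4% of all probe sets. Counted within genotypes, 19 had the bare-name array above both lettered arrays in each. This held for 24.5% of all probe sets and for 90 of the 145 named genes. In 1 of the 26 it lay below both in each, against 27.0% of all probe sets and 10 of the 145. In 3 it lay beyond them in opposite directions, against 9.68% of all probe sets and 16 of the 145. The median of the 26 was 2.21 with centred arrays and 2.81 with scaled signals. Among the lettered adults, mutant 2 had the highest level in 23 of the 26. Its median difference from the mean of the other 3 was 0.81, against -0.06 over all probe sets. With letter pairs as units 0 of these calls remained.

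Of 10 named cuticle collagens, structural proteins of the cuticle, 1 was called higher, a share near the 6.06% of all probe sets. col-41 had levels of 11.54 on wild-type 3 and 10.28 on mutant 1, against 7.48 and 6.74 on the lettered wild-type arrays and 8.07 and 7.46 on the lettered mutants. Its larval levels were 12.13 and 12.66 in the wild type and 10.83 and 11.57 in the mutant. Both bare-name arrays were above every lettered adult and below every larval array of their genotype, and the log2 difference from the lettered adults was 3.47 ± 0.49 (SE, adjusted p = 0.0223), or 11.1-fold.

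Other collagens had large differences with a wider spread. col-109 was at 10.85 and 8.88 on wild-type 3 and mutant 1 and at 5.37, 4.83, 8.37 and 5.76 on wild-type 1, wild-type 2, mutant 2 and mutant 3, a difference of 3.78 ± 1.09 (SE, adjusted p = 0.0715). For col-48 the levels were 11.16 and 8.89 in the pair and 4.99 to 8.20 on the lettered adults, with a difference of 3.58 ± 1.02 (SE, adjusted p = 0.0689). In col-90 they were 11.62 and 8.90 against 5.91 to 8.25, with a difference of 3.44 ± 0.96 (SE, adjusted p = 0.0661). In these 3 genes the pair did not overlap the lettered adults, and the lettered value nearest to mutant 1 was that of mutant 2. The 10 differences ranged from -2.53 to 3.78 with a median of 1.29, and col-142 was at the low end.

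Among the 4 named collagens known from body-shape or tail mutants, 1 was called higher. The share called higher was 6.06% of all probe sets and 54 of the 145 named genes. ram-2, which shapes the rays of the male tail, had 12.84 and 12.59 in the pair and 9.25, 7.83, 10.54 and 9.04 on wild-type 1, wild-type 2, mutant 2 and mutant 3. The larval levels were 11.26 and 13.004 in the wild type and 10.42 and 11.81 in the mutant, so mutant 1 was above both mutant larvae. The difference was 3.54 ± 0.64 (SE, adjusted p = 0.0284). dpy-5, a procollagen needed for normal body length, had 12.48 on wild-type 3 and 10.30 on mutant 1, with 7.50, 6.40, 9.93 and 7.90 on the lettered adults in the same order (adjusted p = 0.0839). rol-6 and sqt-2, whose mutants roll, differed by 2.88 and 3.17 in the wild type and by 0.65 and 0.23 in the mutant, with adjusted p of 0.0772 and 0.159. In sqt-2, mutant 1 (8.12) lay between mutant 2 (8.37) and mutant 3 (7.41).

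**Figure D3:**
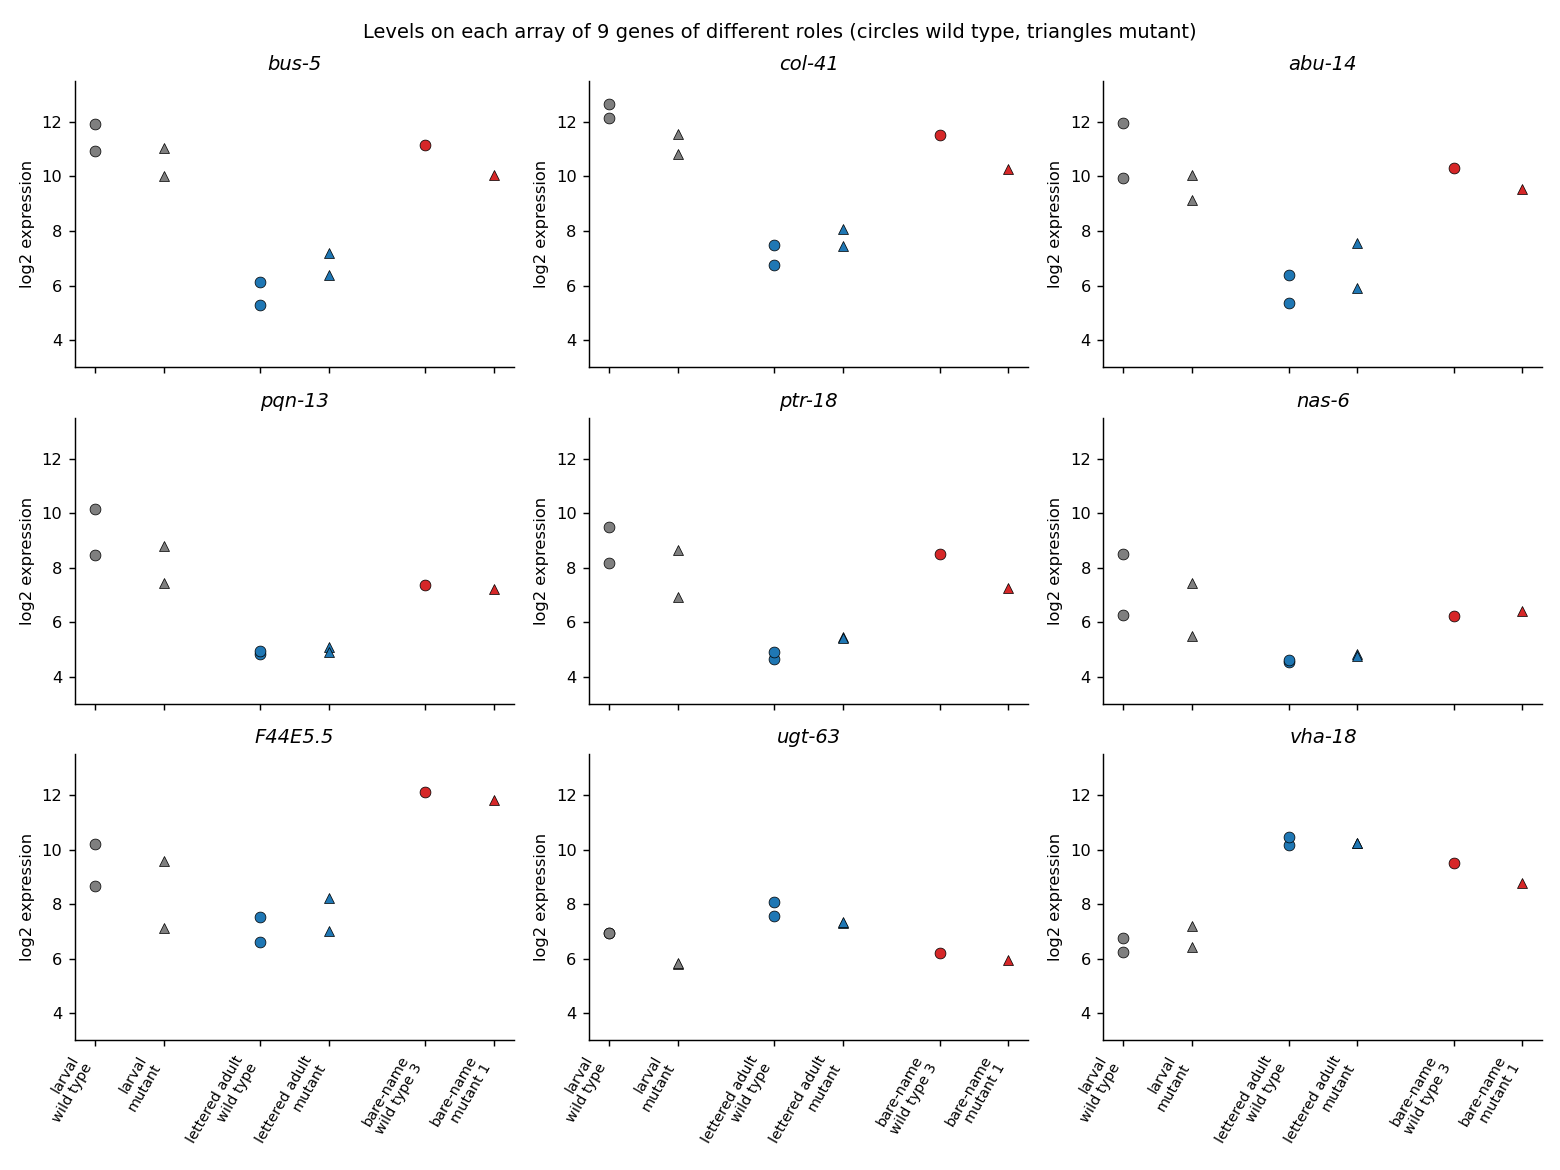
Log2 levels of 9 genes on each of the 10 arrays, ordered by group along the horizontal axis; each point is 1 array, circles are wild type and triangles are mutant. In the first 7 panels both bare-name arrays (red) lie above all lettered adults (blue), and in ugt-63 and vha-18 they lie below them.

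bus-5, a nucleotide-sugar enzyme needed for the surface coat that bacteria adhere to, had 11.15 on wild-type 3 and 10.06 on mutant 1. The lettered adults had 6.12 and 5.27 in the wild type and 7.18 and 6.40 in the mutant, and the larvae had 10.95 and 11.92 in the wild type and 10.003 and 11.06 in the mutant. Each bare-name array was thus within the range of the larvae of its genotype and above all 4 lettered adults. The difference was 4.36 ± 0.57 (SE), or 20.5-fold, with an adjusted p of 0.0208.

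Glutamine- and asparagine-rich proteins of the abu and pqn families, several of which line the pharyngeal cuticle, were called higher in 3 of 4 named members. Higher calls were made at 6.06% of all probe sets and at 54 of the 145 named genes. In all 4 members both bare-name arrays lay above every lettered adult, against 20.4% of all probe sets. abu-14 had 10.30 and 9.52 in the pair against 6.40, 5.34, 7.54 and 5.91 on wild-type 1, wild-type 2, mutant 2 and mutant 3, a difference of 3.61 ± 0.63 (SE, adjusted p = 0.0276). pqn-13 had 7.35 and 7.20 in the pair and 4.84, 4.95, 5.09 and 4.90 on the same lettered arrays. The spread of pqn-13 was small in both groups, and its difference of 2.33 ± 0.16 (SE, adjusted p = 0.0204) was 2.45 in the wild type and 2.20 in the mutant. abu-13 differed by 2.97 ± 0.53 (SE, adjusted p = 0.0281), and abu-8 by 3.18 ± 0.85 (SE, adjusted p = 0.0591).

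Hedgehog-related and patched-related genes act in the epidermis, and several are needed for moulting. Of 5 named members, 4 were called higher, against 6.06% of all probe sets and 54 of the 145 named genes. ptr-18 had 8.49 and 7.24 in the pair and 4.64, 4.89, 5.46 and 5.42 on wild-type 1, wild-type 2, mutant 2 and mutant 3, a difference of 2.77 ± 0.43 (SE, adjusted p = 0.0244). grl-7 and grl-5, which encode ground-like secreted proteins, differed by 2.68 and 2.48 with adjusted p of 0.0320 and 0.0409. For ptr-6 the levels were 6.31 and 6.52 in the pair and 4.33 to 4.99 on the lettered adults, where it was called present on 0 of 4 arrays (difference 1.74 ± 0.26, SE, adjusted p = 0.0227). grd-5, the fifth member and named after its values were seen, had 10.66 on wild-type 3 and 7.89 on mutant 1, on either side of the lettered range of 9.79 to 10.24.

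Of 3 named moulting and matrix genes, 1 was called higher, against 6.06% of all probe sets and 54 of the 145 named genes. nas-6, an astacin metalloprotease, had 6.22 and 6.42 in the pair and 4.54, 4.61, 4.83 and 4.76 on wild-type 1, wild-type 2, mutant 2 and mutant 3. Its larval levels were 6.26 and 8.51 in the wild type and 5.48 and 7.45 in the mutant. The groups of adults did not overlap, and the difference was 1.63 ± 0.14 (SE, adjusted p = 0.0204), with 1.64 in the wild type and 1.62 in the mutant. mlt-8, a gene needed for moulting, had 10.65 and 8.89 in the pair against 5.90 to 8.20 (adjusted p = 0.0913). lpr-7, a lipocalin-related gene, differed by 1.82 in the wild type and 0.18 in the mutant (adjusted p = 0.130).

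Among 7 named genes of lipid breakdown and transport, 3 were called higher, against 6.06% of all probe sets. Of the 145 named genes as a whole, 54 were called higher. lips-3 and lips-9, which encode lipases, differed by 2.21 and 1.49 (adjusted p = 0.0296 and 0.0413). acs-22, an acyl-CoA synthetase that worms need for the barrier of the cuticle, differed by 1.21 (adjusted p = 0.0382), and the related acs-20 by 1.40 (adjusted p = 0.0597). The other 3 members, named after their values were seen, were lbp-3, a fatty acid binding protein, at 0.02, acdh-2, an acyl-CoA dehydrogenase, at -0.97, and acox-1.2, a peroxisomal acyl-CoA oxidase, at -1.09, with adjusted p of 0.954, 0.288 and 0.277. Of 3 named fatty acid synthesis genes 0 were called. fasn-1, the fatty acid synthase, was at 10.91 and 10.97 in the pair and 9.48 to 10.31 on the lettered adults, with an adjusted p of 0.0501, and elo-3, an elongase, differed by -0.38 (adjusted p = 0.473). Of 4 glutathione S-transferases, detoxification enzymes, 0 were called; gst-6 differed by 1.35, gst-13 by 0.39, gst-20 by -0.19 and gst-10 by -1.43. Single named members of other lists were above both lettered arrays in each genotype without passing the test. These were lys-2, a lysozyme (0.81), nlp-8, a neuropeptide-like gene (1.63), and ketn-1, a muscle protein (1.25), with adjusted p of 0.0832, 0.0610 and 0.0713.

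The largest difference among the named genes was not at a cuticle gene. F44E5.5, which encodes a heat shock protein of the hsp70 family, had 12.10 on wild-type 3 and 11.82 on mutant 1. Its lettered levels were 7.52 and 6.61 in the wild type and 8.23 and 7.01 in the mutant, and its larval levels were 8.68 and 10.20 in the wild type and 7.11 and 9.57 in the mutant. Both bare-name arrays were above all 8 other arrays. The difference from the lettered adults was 4.62 ± 0.46 (SE), or 24.5-fold, with an adjusted p of 0.0204, and a second probe set of the gene gave 5.08 ± 0.44 (SE, adjusted p = 0.0204). F44E5.5 has a near-identical neighbour in the worm genome, so these probe sets may measure both genes together. No other gene of the heat shock family could be named in the files.

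Of the 54 named genes called higher, both bare-name arrays lay above all 4 larval arrays in 4 and below all 4 in 6. The other 44 overlapped the larval range or straddled it. The same counts were not taken over all probe sets, so these describe the 54 genes and are no measure of likeness to larvae. The 4 were F44E5.5, F19B2.5, C15A11.7, which the authors' annotation calls an amine oxidase, and F26A3.4, a protein-tyrosine phosphatase; the last 3 were named after their values were seen. The remaining genes of the 12 largest differences were Y47D7A.13 (3.97 ± 0.79, SE, adjusted p = 0.0326), H23N18.5 (3.78 ± 0.91, SE, adjusted p = 0.0479) and dbd-8 (3.64 ± 0.68, SE, adjusted p = 0.0300). In all 3 the pair lay above all lettered adults.

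Fewer named genes were lower in the pair, and 3 were called, although lower calls outnumbered higher ones over all probe sets. ugt-63, a UDP-sugar transferase of the detoxification family, had 6.19 and 5.93 in the pair and 8.08, 7.55, 7.30 and 7.34 on wild-type 1, wild-type 2, mutant 2 and mutant 3. The larvae had 6.94 and 6.94 in the wild type and 5.81 and 5.85 in the mutant. The pair lay below every lettered adult, with a difference of -1.51 ± 0.20 (SE, adjusted p = 0.0211), or 2.84-fold lower. The other 2 named members of that family, ugt-6 and ugt-44, differed by 0.51 and 0.43 (adjusted p = 0.493 and 0.279).

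vha-18, a subunit of the vacuolar proton pump, had 9.51 on wild-type 3 and 8.79 on mutant 1. The lettered adults were tightly grouped at 10.18, 10.45, 10.24 and 10.24, and the larvae had 6.24 and 6.76 in the wild type and 6.44 and 7.21 in the mutant. The pair thus lay between the lettered adults and the larvae, with a difference of -1.13 ± 0.20 (SE, adjusted p = 0.0287). R11A8.1 had 6.70 and 6.28 in the pair and 7.29 to 7.68 on the lettered adults, a difference of -0.997 ± 0.20 (SE, adjusted p = 0.0338).

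Other genes lower on both bare-name arrays did not pass the test. col-142, the collagen with the lowest difference, had 9.76 on wild-type 3 against 11.66 and 10.15, and 7.44 on mutant 1 against 11.65 and 11.04 (adjusted p = 0.0719). fat-7, a stearoyl-CoA desaturase, had 10.29 on wild-type 3 against 11.12 and 10.77, and 8.004 on mutant 1 against 11.64 and 10.80 (adjusted p = 0.0863). In both genes mutant 1 was farther from its lettered arrays than wild-type 3 was. C35A5.3, pud-2.1, dhgd-1, C12D5.9 and rskn-1, a kinase, had differences of -1.59, -1.46, -1.21, -0.54 and -0.43, with adjusted p from 0.0672 to 0.133.

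Among probe sets without a gene name, the smallest p-values belonged to probe sets whose 2 bare-name values were close. Probe set 193849_at had 8.33 and 8.69 on wild-type 3 and mutant 1, 5.71 to 6.18 on the lettered adults and 9.43 to 9.93 on the larvae. Probe set 176467_at had 7.20 and 6.96 in the pair, 4.68 to 4.96 on the lettered adults and 5.58 to 6.80 on the larvae. Lower in the pair were 189781_at (5.19 and 5.21 against 7.94 to 8.06) and 190514_at (4.53 and 4.14 against 6.47 to 7.19). All 4 had an adjusted p of 0.0204. The last 2 had larval levels of 4.72 to 6.03 and 4.39 to 6.26, also below every lettered adult.

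Across 22548 probe sets, the difference of wild-type 3 from its lettered arrays correlated with that of mutant 1 at 0.62, a description over probe sets of arrays that share a naming style. The A-minus-B differences of the lettered arrays correlated between the genotypes at 0.64, so a correlation of this size is not particular to the pair. The differences had an SD of 0.67 in the wild type and 0.97 in the mutant. Probe sets higher by at least 1 numbered 1236 (5.48%) in the wild type and 2831 (12.6%) in the mutant, with 762 in both. Those lower by at least 1 numbered 785 (3.48%) and 2898 (12.9%), with 672 in both. Differences of at least 1 in opposite directions were found at 48 probe sets with the wild type higher and at 1 with the mutant higher.

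Among the named genes the wild-type difference, taken with its sign, was the larger in 112 of 145. This is not a count by size. fat-7, at -0.65 in the wild type and -3.22 in the mutant, falls among the 112. Over all probe sets, the median of the mutant difference minus the wild-type difference was 0.02. Of the 145 genes, 108 are on the authors' lists of transcripts decreased in mutant larvae. Taken with its sign, the wild-type difference was larger in 25 of the 26 cuticle and moulting genes, with medians of 3.64 and 1.46. The 25 include col-142 (-1.15 and -3.91) and grd-5 (0.64 and -2.06), which were farther from the lettered arrays in the mutant. Wild-type 3 lay above both lettered wild-type arrays in 25 of the 26, against 33.5% of all probe sets. Mutant 1 lay above both lettered mutants in 19, against 42.2% of all probe sets. A test of the genotype difference in the change, which takes its spread from the lettered arrays alone, called 0 of 22548 probe sets (0%), with 2412 at an unadjusted p under 0.05. Of the 26 genes, 18 had an unadjusted p under 0.05 and 0 an adjusted one. col-180 illustrates the difference, with 11.02 on wild-type 3 against 7.99 and 6.59, and 7.32 on mutant 1 against 9.49 and 7.43; it was named after its values were seen, and its adjusted p for the genotype difference was 0.375.

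**Figure D4:**
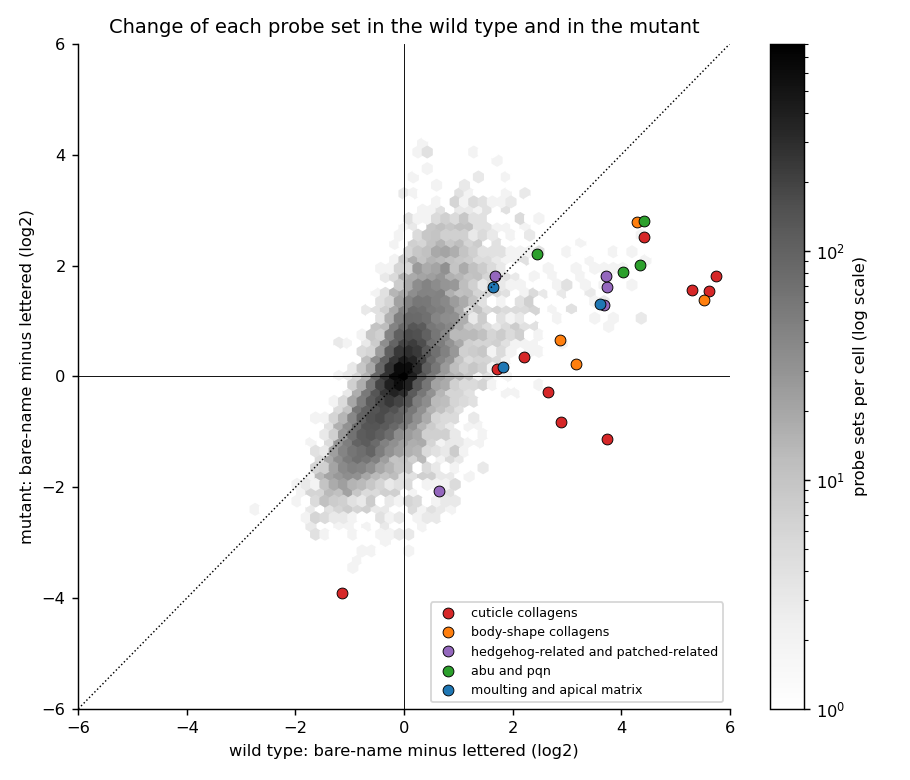
Difference of the bare-name array from the mean of its lettered arrays (log2) in the wild type (horizontal) and in the mutant (vertical) for 22548 probe sets in grey, with the 26 named cuticle and moulting genes in colour. The dotted line marks equal differences; 25 of the 26 coloured genes lie below it.

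Detection calls, which the authors' software made on the same scans, gave a second readout. There were 437 probe sets (1.94%) called present on both bare-name arrays and absent on all 4 lettered adults, and 71 were absent on the pair and present on all 4. Of the 437, 189 (43.2%) were present on at least 3 of the 4 larval arrays and 69 on 0. Presence on at least 3 larval arrays held for 49.5% of all probe sets. It held for 4.73% of the 7503 probe sets absent on all 4 lettered adults. These shares are a description with no test, since detection on the pair chose the set. Of the 145 named genes, most of them chosen on larval arrays, 9 were of this kind. All 9 are listed here, the last 6 of them named after their values were seen. They were nas-6, ptr-6, lips-3, skpo-2, a peroxidase, bed-3, a zinc-finger factor needed for moulting, F13B12.4, which resembles cysteine synthase, C38C6.3, C50D2.1 and Y41G9A.5.

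The larval pairs also differed in spike-in level, and their values for the same genes are set beside those of the adults. The difference between the first larval pair, with the lower spike-in levels, and the second correlated with the bare-minus-lettered difference at 0.12 across probe sets. Of the 26 cuticle and moulting genes, 25 were lower in the first larval pair than in the second, with a median difference of -1.49, against -0.02 over all probe sets. The part of spike-in level in either difference was not tested.

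The authors' deposited table of change calls compared each adult mutant array with each adult wild-type array. The direction of its calls as mutant relative to wild type followed the log2 values, with correlations of 0.44 to 0.74 across probe sets. In the authors' deposited table, the 2 comparisons of lettered arrays with the same letter called 2448 and 2632 probe sets changed. The 2 comparisons of mutant 1 with lettered wild-type arrays called 9076 and 9935 changed in the authors' deposited table, of which 6432 and 6705 were increased in the mutant. In the 2 comparisons of wild-type 3 with lettered mutants, the authors' deposited table had 6107 and 6325 calls, of which 4570 and 5157 were decreased in the mutant. The calls of mutant 1 against wild-type 3 numbered 8042 in the authors' deposited table, with 4472 increased and 3570 decreased. Lettered arrays of other letters gave 6076 for mutant 2 with wild-type 2 and 2432 for mutant 3 with wild-type 1 in the authors' deposited table, so the counts of comparisons with a bare-name array exceeded every lettered one. The 9 comparisons share arrays and are not independent. The directions of calls for the pair depended on the values used. In the limma fit, the scaled signals gave 2794 higher and 916 lower calls, and the log2 values 1367 higher and 2164 lower.

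**Figure D5:**
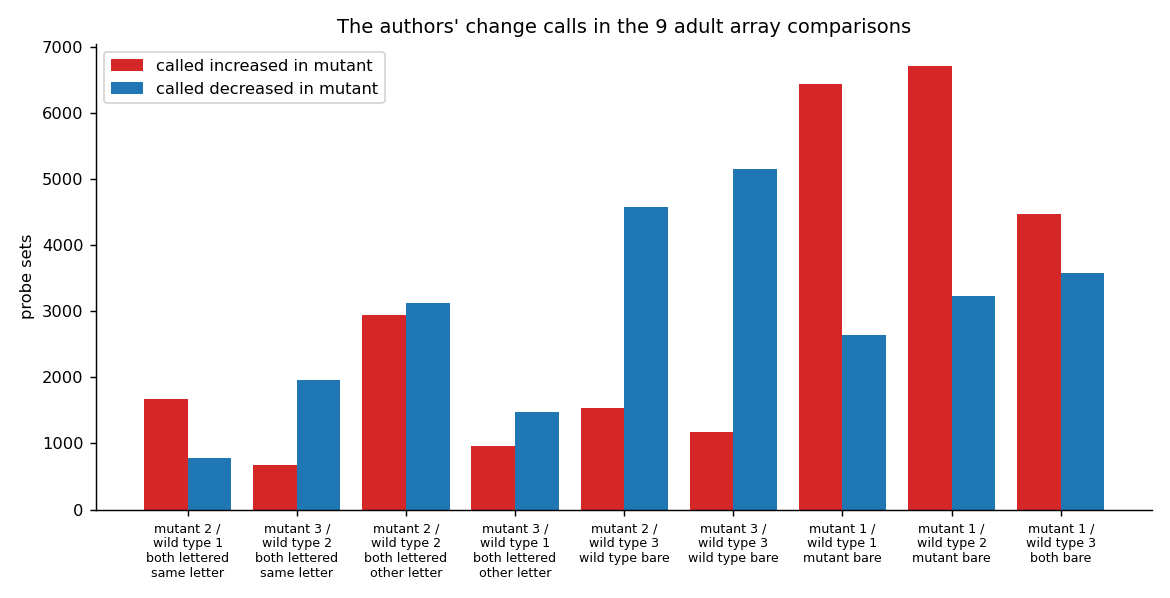
Number of probe sets (vertical axis) that the authors' deposited calls give as increased (red) or decreased (blue) in the mutant in each of the 9 comparisons of an adult mutant with an adult wild-type array. Calls lean to increased where the mutant array has the bare name and to decreased where the wild-type array has it. The median bare-minus-lettered difference over all probe sets was 0.29 in scaled signals and 0.00 in the log2 values.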

How the data were processed

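RNA was labelled with a one-cycle 3' protocol and hybridised to Affymetrix arrays, per the labels' protocols. The deposited log2 expression values come from RMA, which the authors ran (submitters' processing notes, as listed per the labels). The authors' scaled signal values, detection calls and change calls were deposited in separate tables; the column names of the signals carry the tag sc300, with no explanation, and the build and software versions are not given in the sources used here. A further 48 per-array columns of those tables were not used.

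Values were used without further normalisation. Of 22625 probe sets, 77 controls were left out. limma 3.58.1 in R 4.3.3 fitted genotype and naming (bare or lettered) to the 6 adult arrays, with 3 residual degrees of freedom, two-sided tests and Benjamini-Hochberg adjustment over all probe sets at 0.05. A second fit tested the interaction. The fit was tested on simulated data. The titles call the samples biological replicates without naming separate cultures, so p-values measure the spread between these arrays. For arrays, their number limits the precision.

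Of 196 probe sets on the authors' lists, 152 matched exactly 1 gene in the RefSeq annotation (WBcel235), giving 145 genes, each represented by its probe set of highest mean level. Probe sets whose ID ends in s_at or x_at can bind several transcripts. Of 19 gene lists, 15 had a named member. Named were nep-1, vha-18, rskn-1, the 12 largest differences each way among genes whose bare-name array lay beyond both lettered arrays in each genotype, up to 4 members of each list, and 2 unnamed probe sets each way. Members and lists were chosen with earlier results of these data known.

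The numbers in the titles gave no pairing of adults, since deviations of same-numbered arrays correlated at -0.54, -0.22 and -0.65. Alternatives were other scalings, filters on level and detection, an intensity trend, array weights, scaled signals, all 10 arrays, blocks and leaving out each array. Letter pairs as units and each genotype alone were added after seeing the data.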

Additional observations from a re-analysis of the deposited data

Results flagged for a closer look

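Poly-A spike-in controls, which no comparison of worm transcripts uses, were lower on the bare-name pair than on the lettered adult arrays by a mean difference of -1.54 on the log2 scale (exact two-sided permutation p = 0.0667, the smallest that 15 arrangements allow). Their part in the other differences was not tested.

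For nep-1 and cyp-35C1, a cytochrome of drug metabolism, the bare-name array lay above both lettered arrays in the wild type and below both in the mutant. The mutant difference minus the wild-type difference was -1.09 for nep-1 (limma adjusted p = 0.605) and -1.64 for cyp-35C1 (limma adjusted p = 0.256). Bare-name arrays beyond both lettered arrays in opposite directions in the genotypes, in either order, were found at 2183 (9.68%) of all probe sets. Groups of 4 to 10 samples, in which a single outlying array could be tested, do not occur here.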

How the results depend on the processing

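The count of 3531 called probe sets depended on how the spread was estimated. It was 2189 with array weights, 5566 with the letter pairs as a random block (estimated correlation -0.22), 2281 with a difference of at least 1 required, 105 in the wild type alone, 0 in the mutant alone (1 residual degree of freedom) and 0 with letter pairs as units. With the replicate block, which takes the title numbers as pairs although they did not pair the arrays, it was 0. Leaving out 1 array gave 0 to 4120, with 4120 without wild-type 3 and 0 without mutant 1 or without any single lettered array, fits that keep 2 residual degrees of freedom; the smallest adjusted p in those 5 fits ranged from 0.0523 to 0.0793. Quantile, centred, filtered, trend, scaled-signal and 10-array fits gave 2887 to 4273. The genotype difference gave 2 calls with a trend and 13 with all 10 arrays, and 0 in the others, leave-one-out fits included; it could not be fitted without a bare-name array.

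All stage-set medians kept their sign. Larval-high medians read in the mutant were 0.80 at a stage difference of 1, 1.62 with scaled signals and 0.91 to 1.14 without single arrays. Read in the wild type, they were 0.65 at a stage difference of 1, 1.75 with scaled signals, 1.37 after quantile normalisation and 1.56 to 1.86 without single arrays. Adult-high medians read in the mutant were -0.96 at a stage difference of 1, -1.20 with scaled signals and -1.37 to -1.16 without single arrays. In the wild type they were -0.58 at a stage difference of 1, -0.62 with scaled signals and -0.83 to -0.61 without single arrays. The detection count was 517 with marginal calls as present, and the 3' minus 5' difference 0.43 in scaled signals.

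Of the 51 genes that the naming rule picks, 5 changed sign under some alternative, and none of these had passed the test: gst-20 (0.088 with scaled signals, -0.38 to 0.017 without single arrays), cyp-35C1 (0.14 with scaled signals, 0.24 in the wild type alone, -1.40 to 0.24 without single arrays), and, in the mutant alone, nep-1 (-0.20), ugt-6 (-0.25) and ugt-44 (-0.025). Without single arrays these 3 ranged from -0.20 to 0.89, -0.25 to 1.28 and -0.025 to 0.89. Of these 51 genes, 21 had passed, and all 21 lost the call with the replicate block, with letter pairs as units and in the mutant alone, at the same direction.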
